A study of Mus musculus with 50 samples.

Results

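A set of genes that mark the activated fibroblast, or myofibroblast, was followed through the RNA-seq libraries of this series. They are Acta2, Tagln, Cnn1, Myl9, Lrrc15, Postn, Tgfb1, Thy1, Pdgfra and Pdgfrb, 10 of the 24984 genes in the count files, and the rule lists them by name without a threshold on any value. RNA was sequenced from 38 libraries in 10 groups, all from C57BL/6 mice. Kidney and liver came from untreated young mice (2.5 months) and untreated old mice (23 to 25 months), with 4 libraries per group. Kidney and liver also came from mice of 20 to 21 months given DMSO or the agent labelled 3C, again with 4 libraries per group. Skin fibroblasts of the mice labelled P9 were given DMSO or 3C, with 3 libraries per group. The labels explain neither 3C nor P9 and give no dose or duration, and they do not say whether the fibroblast libraries came from separate cultures, so the p-values there measure the spread between these libraries, which may be technical. Accessible chromatin was profiled by ATAC-seq in the untreated young and old kidney and liver only, with 3 libraries per group.

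A fibroblast that becomes a myofibroblast builds smooth muscle type stress fibres, lays down matrix and pulls on it, as in a healing wound or a scarring organ. Transforming growth factor beta (TGF-beta) is the best known inducer of that state and acts through SMAD proteins, while serum response factor (SRF) and its MRTF cofactors switch on the contractile genes through a DNA element called the CArG box. Platelet-derived growth factor (PDGF) drives mesenchymal cells to divide and migrate. Kidney and liver hold the same genes in vascular smooth muscle, pericytes, mesangial cells and stellate cells, so a tissue level is not a level of myofibroblasts alone.

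The libraries held 14.2 to 43.7 M (mega) counts in genes, and 5.85 to 19.11% of reads fell outside genes. Levels are given as CPM, the counts of a gene scaled to 1 M counts in genes of that library, and compared between genes as FPKM, which also divides by the summed exon length. The skin fibroblasts carried the label's markers: the summed CPM of 8 fibroblast markers was 17810 to 24690 with DMSO and 18800 to 24700 with 3C, against 177 to 831 in the tissue libraries. Col1a1 and the members Thy1 and Pdgfra are among these markers. In the same cells 7 T cell markers summed to at most 0.578 CPM, with 5 of 7 at 0 in each group, and 7 keratinocyte and epithelial markers summed to 6.32 to 9.37 CPM. Old kidney replicate 2 carried liver transcripts (8 hepatocyte markers summed to 4066 CPM, against 106 to 147 in the other old kidneys), and the old kidney fold changes, list counts and member correlations below were also computed without it.

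The start sites of 4 members are shown, since Acta2, Cnn1 and Lrrc15 fell with 3C in fibroblasts and Myl9 rose in old kidney, each from 250 bases before to 50 bases after the start (RefSeq, GRCm38.p6, 5′ to 3′ on the gene's own strand). Acta2 lies at chr19:34255324-34255623 on the minus strand, Cnn1 at chr9:22099003-22099302 on the plus strand, Myl9 at chr2:156775214-156775513 on the plus strand and Lrrc15 at chr16:30283205-30283504 on the minus strand. Capitals mark matches, on either strand, to the AP-1 element TGANTCA and to the CArG box with at most 1 mismatch in its middle 6 bases.
Acta2: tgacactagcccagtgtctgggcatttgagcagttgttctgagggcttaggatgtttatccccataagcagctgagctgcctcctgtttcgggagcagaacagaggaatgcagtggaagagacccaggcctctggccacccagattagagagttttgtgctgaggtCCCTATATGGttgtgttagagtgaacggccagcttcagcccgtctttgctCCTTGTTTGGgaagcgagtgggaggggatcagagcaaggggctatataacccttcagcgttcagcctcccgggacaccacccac
Cnn1: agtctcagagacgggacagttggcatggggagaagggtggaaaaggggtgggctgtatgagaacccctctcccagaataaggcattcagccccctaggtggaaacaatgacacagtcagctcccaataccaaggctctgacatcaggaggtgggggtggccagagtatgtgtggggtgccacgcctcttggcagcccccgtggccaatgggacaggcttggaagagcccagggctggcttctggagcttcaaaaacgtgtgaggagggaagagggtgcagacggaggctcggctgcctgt
Myl9: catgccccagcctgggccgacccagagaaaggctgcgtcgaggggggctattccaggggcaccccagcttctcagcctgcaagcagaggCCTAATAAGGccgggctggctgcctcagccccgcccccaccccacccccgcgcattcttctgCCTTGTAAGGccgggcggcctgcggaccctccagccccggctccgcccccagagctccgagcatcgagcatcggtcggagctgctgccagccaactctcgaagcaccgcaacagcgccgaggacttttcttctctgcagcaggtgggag
Lrrc15: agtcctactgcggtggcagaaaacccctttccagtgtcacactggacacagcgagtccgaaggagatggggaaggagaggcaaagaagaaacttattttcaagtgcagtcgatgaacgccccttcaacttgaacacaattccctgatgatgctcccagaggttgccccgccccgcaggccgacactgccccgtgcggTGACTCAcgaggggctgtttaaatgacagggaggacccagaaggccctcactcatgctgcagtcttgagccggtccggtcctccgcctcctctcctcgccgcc

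Myl9 held an exact CArG box 161 bases before its start and a second with 1 mismatch 99 bases before it. Acta2 held a pair with 1 mismatch, at 84 and 34 bases before the RefSeq start, which lies 217 bases from the GENCODE start, and a TEAD element GGAATG 146 bases before it. No CArG match stood in the Cnn1 window, which says only that these letters are not in these 300 bases. Lrrc15 held 1 AP-1 match, TGACTCA, 53 bases before its start. Of 32851 RefSeq promoters of this length, 1.63% held an exact CArG box, 9.98% one with at most 1 mismatch, 14.7% the TEAD element and 7.81% the AP-1 element. Promoters of 7 of the 10 members were matched. Those of Postn, Tgfb1 and Pdgfra held no CArG match. Postn had a TATAAA 26 bases before its main start (in 13.6% of promoters) and Tgfb1 had 6 copies of GGGCGG, the SP1 letters (at least 1 copy in 35.7%).

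The first question was what 3C did to these genes in skin fibroblasts. Lrrc15, Acta2 and Cnn1 fell, no member rose, and the surface markers Thy1, Pdgfra and Pdgfrb passed no test. By edgeR's quasi-likelihood test with Benjamini-Hochberg adjustment over 13449 genes, 3 of 10 members were lower with 3C and 0 were higher, where 1.78% of all genes tested were lower and 2.43% higher. In 6 members every 3C library lay below every DMSO library, which held for 9.93% of all genes. The median log2 fold change of the 10 members was -0.37, against 0.01 over all genes.

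Lrrc15, a leucine-rich repeat membrane protein of activated fibroblasts, showed the largest fold change of the members. It was counted at 70.6, 66.2 and 80.3 CPM in the DMSO libraries and at 30.6, 24.3 and 24.1 CPM in the 3C libraries. The groups stood far apart, and the highest 3C library lay below the lowest DMSO library. The mean was 72.4 ± 7.20 CPM with DMSO and 26.3 ± 3.67 CPM with 3C (SD, n = 3 each), and the fitted log2 fold change was -1.51 (SE 0.13, edgeR adjusted p = 0.00055). It was the single member past both the adjusted p and a 2-fold change, a rule that 0.632% of genes passed downward, and its call held in all 13 alternative settings.

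Of the contractile members, Acta2 (smooth muscle alpha actin, the classical myofibroblast filament) was the most abundant. It was counted at 1767, 1726 and 1995 CPM with DMSO and at 1051, 1179 and 1349 CPM with 3C. The groups did not overlap, and the log2 fold change was -0.66 (SE 0.16, edgeR adjusted p = 0.0419). Cnn1 (calponin, which binds actin and damps myosin activity) stood at 113, 80.7 and 98.3 CPM with DMSO and at 53.0, 56.7 and 74.5 CPM with 3C. These groups did not overlap either, and the log2 fold change was -0.71 (SE 0.17, adjusted p = 0.0457). Both calls sat close to the threshold and were lost in 7 of 13 alternatives for Acta2 (adjusted p up to 0.281) and in 6 of 13 for Cnn1 (up to 0.279). Over those 13 settings the log2 fold change stayed between -0.779 and -0.482 for Acta2 and between -0.892 and -0.583 for Cnn1. With either DMSO replicate 1 or 3, or 3C replicate 1 or 2, left out, Lrrc15 was the 1 member called.

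Tagln (transgelin, an actin-bundling protein of smooth muscle) was at 1655, 1473 and 1371 CPM with DMSO and at 905, 1098 and 1250 CPM with 3C. Myl9 (the regulatory light chain of smooth muscle myosin) was at 478, 400 and 472 CPM with DMSO and at 308, 329 and 395 CPM with 3C. Neither gene's groups overlapped, yet neither passed the test: log2 -0.51 (SE 0.17, edgeR adjusted p = 0.111) for Tagln and -0.44 (SE 0.15, adjusted p = 0.133) for Myl9. Tagln was called lower in 2 of 13 alternatives, by DESeq2 and with length and GC trends removed (adjusted p down to 0.0229), and Myl9 in none. Exons of Pcsk7, a counted gene on the other strand, cover 5.4% of the Tagln exons, and with all gene models of the annotation the cover is 67.9%. Reads were counted without strand, so reads from an overlapping gene model that was not counted cannot be told apart from those of Tagln. Reads shared by counted genes have a tally of their own, as ambiguous.

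Postn (periostin, a matrix protein of remodelling tissue) was tight within groups, at 2155, 2145 and 2061 CPM with DMSO and 1799, 1754 and 1793 CPM with 3C. The groups did not overlap but the log2 fold change was -0.30 (SE 0.13, edgeR adjusted p = 0.228). Tgfb1, the ligand, stood at 80.3, 71.4 and 84.5 CPM with DMSO and 61.7, 72.7 and 80.9 CPM with 3C. Its groups overlapped and its log2 fold change was -0.18 (adjusted p = 0.515, approximate 95% interval -0.46 to 0.10).

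Thy1 (CD90, a surface glycoprotein of fibroblasts and, in mice, of T cells) was at 3824, 3867 and 3951 CPM with DMSO and at 3454, 4254 and 4535 CPM with 3C. The 3C libraries fell on both sides of the DMSO libraries, and the log2 fold change of 0.03 had an approximate 95% interval of -0.30 to 0.35. Pdgfra, the receptor chain of fibroblasts, and Pdgfrb, that of pericytes and fibroblasts, also overlapped between the groups. Their log2 fold changes were -0.05 (interval -0.32 to 0.22) and 0.19 (interval -0.14 to 0.51). In both receptor genes 3C replicate 1 was the highest of the 6 libraries, at 321 CPM for Pdgfra and 685 CPM for Pdgfrb, while in Acta2, Tagln, Cnn1, Myl9, Tgfb1 and Thy1 it was the lowest.

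**Figure D1:**
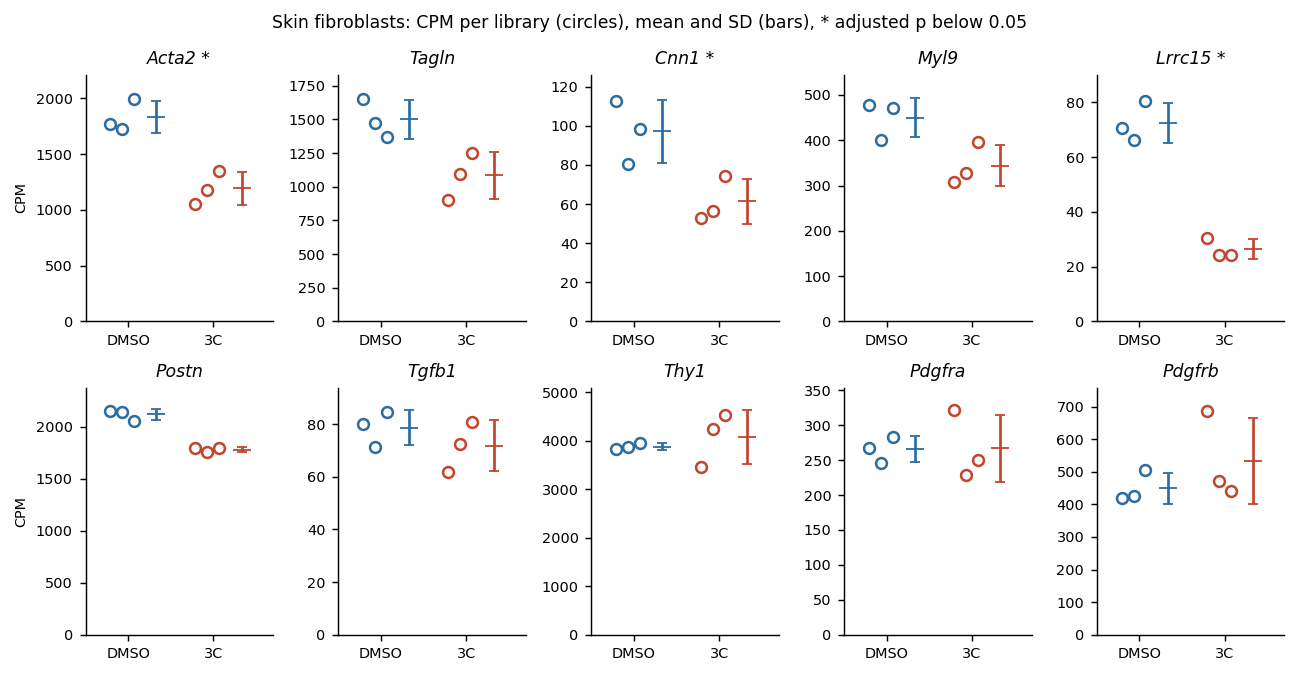
CPM of the 10 members in skin fibroblasts with DMSO (blue) or 3C (red), each circle 1 library, with the group mean and SD beside it (n = 3). The 3C circles lie below all DMSO circles in the contractile genes, Lrrc15 and Postn, and the groups overlap in Tgfb1, Thy1, Pdgfra and Pdgfrb. As a ratio, though not in CPM, the difference is largest in Lrrc15 (24.1 to 30.6 against 66.2 to 80.3 CPM).

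Genes around the members in the same pathways were read from the same fit, where 2.43% of all genes were higher and 1.78% lower. Of 13 tested genes for TGF-beta ligands, latency and receptors, 0 rose and 0 fell (median log2 0.10). Of the 12 SMADs and TGF-beta response genes reported here 0 fell and 1 rose, Tgfbi, which codes for a matrix protein (log2 0.81, adjusted p = 0.0308). Of 18 further contractile genes of the SRF programme, 0 rose and 2 fell: Actg2, smooth muscle gamma actin (-0.92, adjusted p = 0.0209), and Myh11, smooth muscle myosin heavy chain (-0.58, adjusted p = 0.0444). Of these 18 genes, 13 had values below 0 (median -0.20), where 48.9% of all genes did.

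Of 3 tested PDGF ligand genes, Pdgfc fell (log2 -0.82, adjusted p = 0.0234). Of 20 fibroblast matrix genes, 0 rose and 2 fell: Timp1, an inhibitor of matrix proteases (-1.02, adjusted p = 0.022), and Pdpn, podoplanin (-0.56, adjusted p = 0.0464). The collagen genes Col1a1 (log2 -0.21, adjusted p = 0.609) and Col3a1 (0.03, adjusted p = 0.959), named after their values were seen, passed no test.

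Other measures also differed between these fibroblast groups. The summed CPM of 8 macrophage markers was 290 to 373 with DMSO and 118 to 179 with 3C, with 8 of 8 below 0 and 2 called lower (Lyz2 -1.35, Csf1r -0.94). The summed CPM of 8 cell division genes was 200 to 238 with DMSO and 162 to 173 with 3C, with 8 of 8 below 0 and 3 called lower (Top2a, Ccnb1 and Birc5). The 7 smooth muscle markers, all of them also in the contractile list above, summed to 210 to 219 CPM with DMSO and 151 to 171 CPM with 3C. The sum of 9 pericyte and mesangial markers was 103 to 137 CPM with DMSO and 151 to 226 CPM with 3C, with Mcam called higher (log2 1.21). Single markers of other cells were called too, Alb of hepatocytes lower (log2 -3.13, adjusted p = 0.00641) and Tek of endothelium higher (1.05, adjusted p = 0.0385). The other tested markers of these cells lay on the other side of 0 and did not pass, Hpx of hepatocytes at 0.20 and Kdr and Egfl7 of endothelium at -0.85 and -0.38, and Lrp2 (-0.94) and Cubn (-1.14) of the proximal tubule did not pass. The share of reads outside genes was 5.85 to 6.91% with DMSO and 6.71 to 7.55% with 3C. Their part in the results above was not tested, except that with the share of reads outside genes in the model the log2 fold changes were -0.482 for Acta2 and -0.583 for Cnn1, whose calls were lost, and the call of Lrrc15 was kept. In bulk RNA, fewer cells of a type and less RNA per cell cannot be told apart.

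Across the 10 groups all 10 members were highest in the 2 fibroblast groups. Per length of transcript the order in DMSO fibroblasts ran from Thy1 (1296 FPKM) through Acta2 (833), Tagln (755), Myl9 (387) and Postn (244) to Pdgfrb (82.1), Cnn1 (35.6), Pdgfra (26.5), Tgfb1 (15.6) and Lrrc15 (13.6). In young kidney the contractile genes led, with Myl9 at 57.9, Tagln at 39.2 and Acta2 at 33.4 FPKM, and Lrrc15 was last at 0.121 FPKM. In young liver no member passed 5 FPKM: Tagln stood at 4.93, Myl9 at 4.65 and Postn at 2.70 FPKM. The age series and the treated series were not tallied alike upstream (counts of unaligned and multiply aligned reads are 0 in every DMSO and 3C library), so levels across the 2 series are set side by side and not tested.

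**Figure D2:**
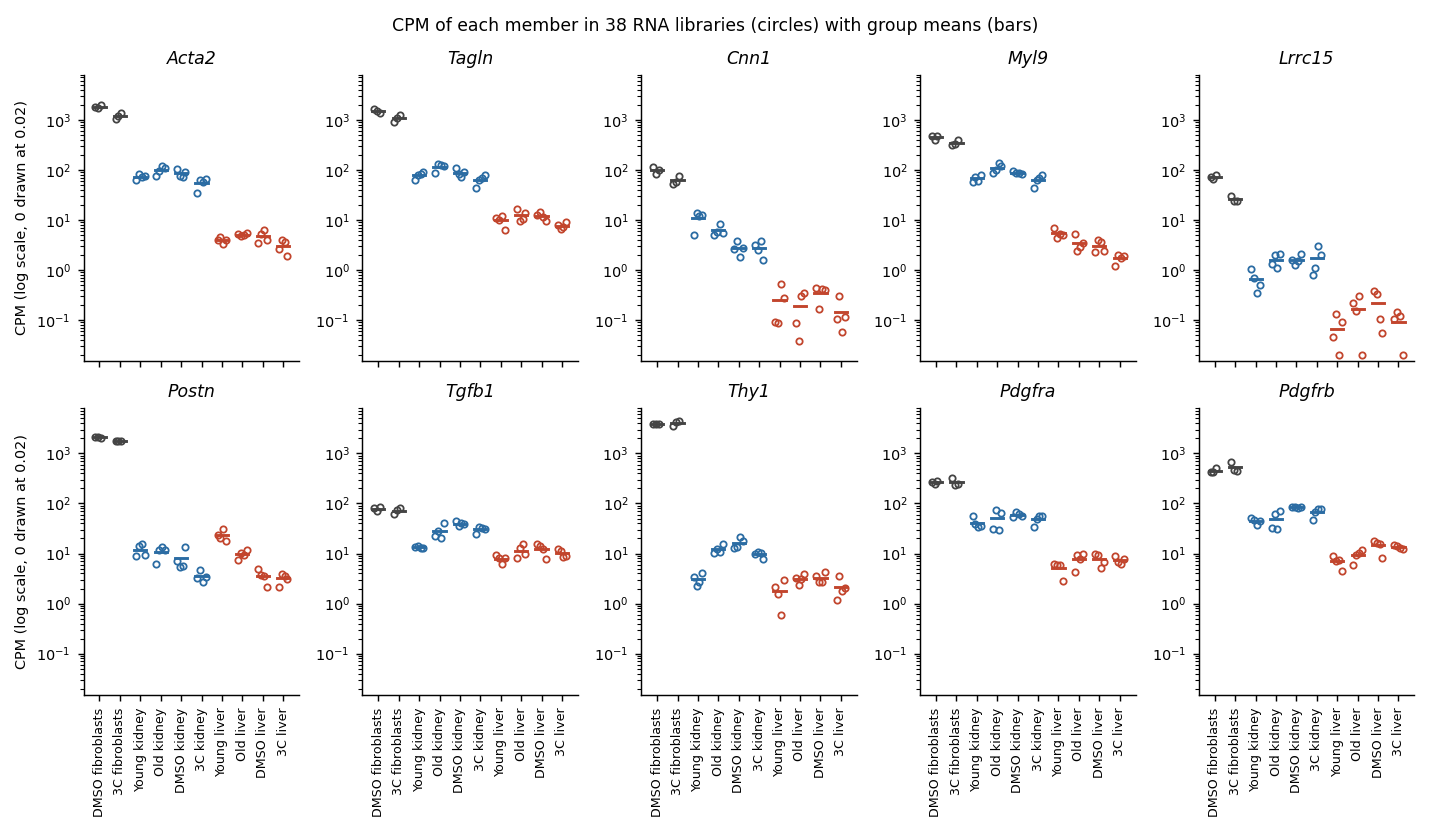
CPM on a log scale for each member in all 38 RNA libraries (circles) with group means (bars), fibroblasts in grey, kidney in blue and liver in red; a value of 0 is drawn at 0.02. Fibroblast groups lie above all tissue groups in all 10 members, and kidney lies above liver in most; Postn is the member in which young liver lies above every kidney group.

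DMSO fibroblasts were compared with DMSO kidney and DMSO liver, which share the fibroblast libraries. Against kidney 10 of 10 members were higher (edgeR, 15437 genes, 38.3% higher and 45.0% lower over all genes), by log2 values from 1.28 for Tgfb1 through 2.44 for Pdgfra, 2.66 for Myl9, 2.70 for Pdgfrb, 4.38 for Tagln, 4.72 for Acta2, 5.46 for Cnn1 and 5.78 for Lrrc15 to 8.17 for Thy1 and 8.34 for Postn. Postn was at 2120 ± 51.4 CPM in the fibroblasts (SD, n = 3) and 7.97 ± 3.92 CPM in kidney (SD, n = 4). Against liver 10 of 10 were higher (14500 genes, 39.4% higher), from 1.90 for Tgfb1 through 4.199 for Pdgfrb, 4.36 for Pdgfra, 6.22 for Tagln, 6.45 for Myl9, 7.34 for Cnn1, 7.60 for Lrrc15, 7.845 for Acta2 and 8.47 for Postn to 9.46 for Thy1. In these comparisons TMM scaling set the fitted values apart from the ratio of mean CPM, by a median of 0.29 against kidney and -0.75 against liver on the log2 scale over the members. Tgfb1 was the member whose level differed least between these cells and either organ.

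Young kidney and young liver differed in the members as follows. Of 9 members tested, 6 were higher in kidney and 1 lower (edgeR, 14057 genes, 35.1% higher and 30.2% lower over all genes). Cnn1 was at 4.92, 13.8, 11.9 and 12.4 CPM in kidney and at 0.0878 to 0.531 CPM in liver, a log2 difference of 4.37 (adjusted p = 1.57e-05). Acta2 differed by 3.13, Myl9 by 2.56, Tagln and Pdgfra by 1.92 and Pdgfrb by 1.63. Postn went the other way, at 8.74 to 15.7 CPM in kidney and 18.0 to 31.2 CPM in liver (log2 -2.07, adjusted p = 7.56e-06). TMM scaling moved all 9 fitted values below the log2 ratio of mean CPM, by 1.07 to 1.10, so that for Postn the ratio was -0.98, for Acta2 4.22 and for Cnn1 5.45. Tgfb1 and Thy1 passed no test, and in both the scaling decides the direction. The CPM of Tgfb1 was higher in kidney (12.9 to 14.2 against 6.23 to 9.33) and its fitted log2 value was -0.33 (adjusted p = 0.109), and Thy1 had a log2 ratio of mean CPM of 0.79 and a fitted value of -0.31 (adjusted p = 0.551).

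The next question was which members changed with age. In kidney Thy1, Tgfb1 and Myl9 rose and no member fell. By edgeR over 14495 genes, 3 of 10 members were higher in old kidney and 0 lower, where 8.15% of all genes were higher and 3.36% lower. In 4 members, all old libraries lay above all young ones (13.5% of genes), and the members' median log2 fold change was 0.47, against 0.02 over all genes. Without old kidney replicate 2, the library with liver transcripts, 3 members were also higher, where 11.5% of all genes were higher and 12.2% lower.

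Thy1 was counted at 3.33, 2.29, 2.67 and 4.14 CPM in young kidney and at 10.1, 12.2, 10.9 and 15.4 CPM in old kidney. No old library came near a young one, and the log2 fold change was 1.93 (SE 0.23, edgeR adjusted p = 0.00126). Tgfb1 was at 13.5, 14.2, 12.9 and 13.1 CPM in young kidney and at 22.5, 28.2, 20.0 and 40.0 CPM in old kidney. The young values were nearly equal and the old ones spread 2-fold, and the log2 fold change was 1.002 (SE 0.18, adjusted p = 0.00729). Both calls held in all 15 alternatives.

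Myl9 was at 58.0, 72.4, 58.5 and 80.4 CPM in young kidney and at 86.3, 100.4, 136 and 119 CPM in old kidney. The groups did not overlap, but the gap was narrow, and the log2 fold change of 0.69 (SE 0.18, edgeR adjusted p = 0.0397) lost its call in 8 of 15 alternatives and was 0.30 once the trend with transcript length and GC content was removed. The other contractile genes did not pass: Tagln 0.53 (adjusted p = 0.0652), Acta2 0.40 (adjusted p = 0.126) and Cnn1 -0.82 (adjusted p = 0.127), whose young libraries themselves ran from 4.92 to 13.8 CPM. Lrrc15 was scarce, at 0.351 to 1.04 CPM in young and 1.07 to 2.04 CPM in old kidney. Its groups did not overlap and its log2 fold change of 1.26 (SE 0.38) did not pass (adjusted p = 0.062). Postn (-0.17), Pdgfra (0.24) and Pdgfrb (0.08) overlapped between the ages. The old kidneys were split in both receptor genes, with replicates 2 and 4 at 74.7 and 65.6 CPM for Pdgfra and replicates 1 and 3 at 31.6 and 29.2 CPM, and likewise for Pdgfrb (62.1 and 71.7 against 32.95 and 31.2 CPM).

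In the same comparison, where 8.15% of all genes were higher and 3.36% lower, 2 of 15 genes for TGF-beta ligands, latency and receptors rose, Ltbp2 (log2 3.78), which codes for a matrix protein of the latent TGF-beta binding family, and the coreceptor Eng (0.52). Of the 12 SMADs and response genes reported here 2 rose, Tgfbi (1.47) and Ccn1 (0.91), and of 4 PDGF ligands Pdgfa rose (0.58). Of 18 contractile genes 3 rose and 1 fell: Cnn2 (1.10), Csrp1 (0.60) and Tpm1 (0.56) were higher and Myh11 (-0.70) was lower. Of 19 matrix genes 7 rose and 0 fell, with Vim (1.36), S100a4 (1.88), Lum (1.57) and Pdpn (0.99) among them. Without old kidney replicate 2, where 11.5% of all genes were called higher and 12.2% lower, 3 genes of the ligand and receptor list were higher and 1 lower, 3 contractile genes higher and 2 lower, 1 PDGF ligand higher and 1 lower, and 7 matrix genes higher, while Smad4 joined the calls as lower. The T cell and macrophage counts were then 6 of 7 and 8 of 8 higher.

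Markers of immune cells moved with these members in kidney. The 7 T cell markers, a lineage that carries Thy1 in mice, summed to 4.57 to 6.28 CPM in young and 24.7 to 37.6 CPM in old kidney, and 6 of 7 were called higher, Cd3g (log2 3.41) and Cd3d (2.62) with the smallest p. The 8 macrophage markers, a lineage that makes Tgfb1, summed to 152 to 176 CPM in young and 694 to 1608 CPM in old kidney, and 8 of 8 were called higher, Lyz2 (3.54) and C1qa (2.78) with the smallest p. The T cell sum stood at 21.1 to 55.3 CPM in DMSO kidney and 16.0 to 24.3 CPM in 3C kidney, and the macrophage sum at 613 to 703 and 368 to 601 CPM. The 8 fibroblast markers, which are the members Thy1 and Pdgfra and otherwise genes of the matrix list, summed to 359 to 442 CPM in young and 331 to 831 CPM in old kidney. Summed CPM of 7 smooth muscle markers, all also in the contractile list, was 180 to 231 in young and 184 to 215 in old kidney. The 7 proximal tubule markers, of the most abundant cell of the kidney cortex, went the other way, with summed CPM of 23090 to 29240 in young and 15260 to 24890 in old kidney. Of these 6 of 7 were below 0 and 2 were called lower, Slc34a1 (-0.61) and Slc5a2 (-0.51), and 4 without old kidney replicate 2. Of 4 mesothelial markers tested 2 were below 0, and Msln was called higher (1.04), while without old kidney replicate 2 Wt1 was also called, as lower. Their part in the rise of Thy1, Tgfb1 and Myl9 was not tested.

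**Figure D3:**
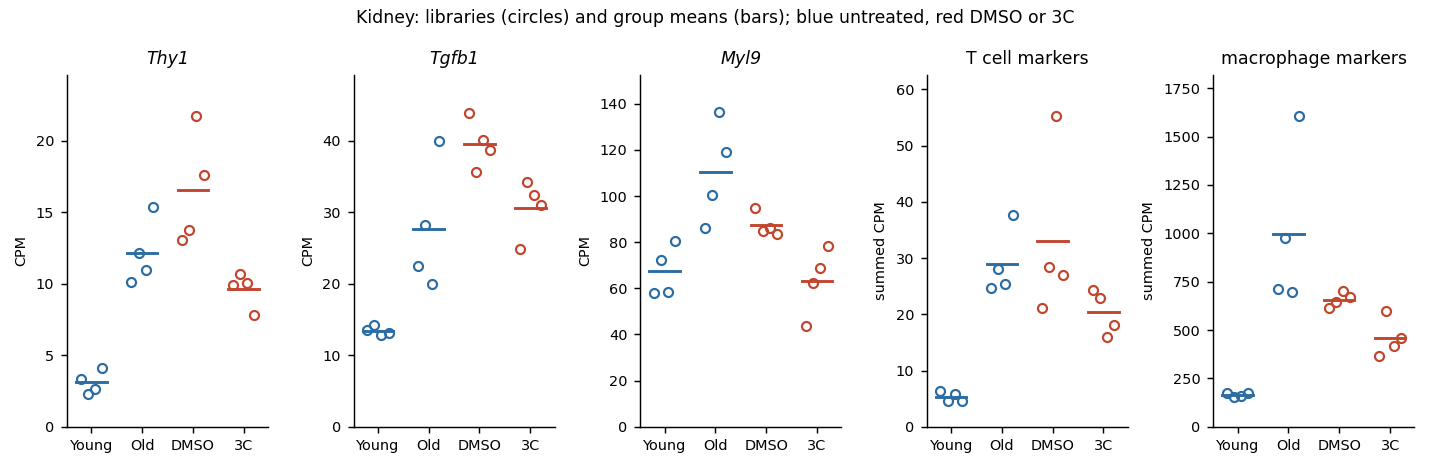
Kidney libraries (circles) and group means (bars) of the 4 kidney groups, untreated in blue and DMSO or 3C in red, as CPM of Thy1, Tgfb1 and Myl9 and as summed CPM of the T cell and macrophage markers. Old kidney lies above young kidney in all 5 panels, with Thy1 at 10.1 to 15.4 against 2.29 to 4.14 CPM and the T cell markers at 24.7 to 37.6 against 4.57 to 6.28 CPM.

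In liver Postn fell with age and no other member passed. Cnn1 and Lrrc15 were too scarce to test there. Of the 8 members tested 1 was lower and 0 higher (edgeR, 12537 genes, 0.558% lower and 1.91% higher over all genes). Postn was at 24.0, 20.6, 31.2 and 18.0 CPM in young liver and at 7.44, 10.1, 9.22 and 12.02 CPM in old liver. All old libraries lay below all young ones (as in 2.46% of genes), the log2 fold change was -1.35 (SE 0.20, adjusted p = 0.00852), and the call held in all 15 alternatives. Acta2 stood at 3.33 to 4.57 CPM in young and 4.65 to 5.45 CPM in old liver, without overlap (higher without overlap in 6.72% of genes), and did not pass (log2 0.32, adjusted p = 0.609). Thy1 (0.73), Pdgfra (0.52), Tgfb1 (0.45), Pdgfrb (0.34), Tagln (0.325) and Myl9 (-0.65) did not pass either. Among the pathway genes Ccn2, a matricellular TGF-beta target (0.99, adjusted p = 0.047), and Vim (0.82, adjusted p = 0.0486) were higher. The macrophage markers summed to 495 to 668 CPM in young and 878 to 1607 CPM in old liver, with 8 of 8 above 0 and Cd68 (1.21) and Lyz2 (1.43) called higher. The T cell markers summed to 2.63 to 4.71 and 7.14 to 8.79 CPM, with 5 of 5 tested above 0 and 0 called, and the epithelial marker Cdh1 was called lower (-3.02) and the cell division gene Mki67 higher (1.63). Their part in the fall of Postn was not tested.

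The difference between the age effects of the organs was tested in 1 model of both. The sample titles do not say whether kidney and liver libraries came from the same mice. This model, the joint model of 3C and the correlations between members below treat the libraries as independent. By edgeR's interaction term 0 of 10 members passed, where 1.72% of 15036 genes did. An unadjusted p under 0.05 was given by 3 members and by 14.0% of genes, and DESeq2 called 2 members (Myl9 and Postn) and 3.75% of genes. The effect in liver minus that in kidney was -1.30 for Myl9 (adjusted p = 0.105), -1.14 for Postn (adjusted p = 0.118), -1.14 for Thy1 (adjusted p = 0.321) and -0.50 for Tgfb1 (adjusted p = 0.439). Whether the fall of Postn belonged to liver and the rise of Thy1 to kidney was thus not settled by these libraries.

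With 3C in kidney of the mice of 20 to 21 months 8 of 10 members had values below 0, but no gene of the genome passed the adjusted threshold. By edgeR over 14974 genes, 0 members and 0.0% of all genes were called, while 11.9% of genes and 7 of 10 members had an unadjusted p under 0.05. By DESeq2, 71 genes were higher and 152 lower (0.772%), and 3 members were lower: Acta2 (adjusted p = 0.0336), Postn (0.0194) and Thy1 (0.00615). In 6 members all 3C libraries lay below all DMSO libraries, which held for 5.35% of genes.

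Thy1 was at 13.1, 13.7, 21.8 and 17.6 CPM in DMSO kidney and at 9.93, 10.7, 10.02 and 7.84 CPM in 3C kidney. The groups were apart, with a log2 fold change of -0.75 (SE 0.17, edgeR adjusted p = 0.192). Acta2 was at 101, 75.3, 70.9 and 91.9 CPM with DMSO and at 33.7, 62.6, 56.2 and 64.1 CPM with 3C, a log2 fold change of -0.62 (SE 0.18, adjusted p = 0.238). Postn was at 7.07, 5.31, 5.77 and 13.8 CPM with DMSO and at 3.31, 4.73, 2.66 and 3.43 CPM with 3C (log2 -1.14, SE 0.31, adjusted p = 0.224). Myl9 (-0.44), Tgfb1 (-0.34) and Pdgfrb (-0.30) were the other members without overlap. Tagln (-0.44) and Pdgfra (-0.25) overlapped between the groups.

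A single library contributed to several of these values. 3C kidney replicate 1 was the lowest 3C library in Acta2, Tagln, Myl9, Tgfb1, Pdgfra and Pdgfrb. Without it the log2 fold changes were -0.46 for Acta2, -0.305 for Tagln, -0.30 for Myl9, -0.11 for Pdgfra, -0.264 for Tgfb1 and -0.17 for Pdgfrb, while those of Thy1 (-0.78) and Postn (-1.12) were close to the values above. For Postn DMSO kidney replicate 4, the highest library at 13.8 CPM, weighed more, and without it the log2 fold change was -0.747. Cnn1 (0.06) and Lrrc15 (0.13) did not differ in a fixed direction and turned sign when single libraries were left out. Of the lists, 19 of 19 matrix genes, 16 of 18 contractile genes, 8 of 8 macrophage markers and 7 of 7 T cell markers had values below 0 in kidney, against 48.6% of all genes, and none was called. The fibroblast markers, 8 of 8 below 0, are no separate list, since Thy1 and Pdgfra are members and the others are matrix genes. The part of the other lists in the member values was not tested.

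In liver with 3C, 0 of 8 members tested were called, as were 0.0% of 13042 genes by edgeR (5 genes higher and 2 lower by DESeq2). At an unadjusted p under 0.05 stood 3.34% of genes and 2 members. These were Tagln, at 12.2, 14.4, 11.6 and 9.62 CPM with DMSO and 7.77, 6.67, 7.28 and 9.08 CPM with 3C (log2 -0.61, SE 0.17, adjusted p = 1.0), and Myl9, at 2.29, 3.88, 3.55 and 2.39 CPM and 1.22, 1.962, 1.702 and 1.92 CPM (log2 -0.81, SE 0.30, adjusted p = 1.0). In both the groups did not overlap, as in 1.23% of genes in that direction. All 8 members tested had values below 0, as did 50.3% of genes. The other 6 overlapped between the groups, at -0.61 for Acta2, -0.56 for Thy1, -0.265 for Tgfb1, -0.12 for Postn, -0.098 for Pdgfrb and -0.016 for Pdgfra. The T cell markers summed to 6.58 to 9.95 CPM with DMSO and 4.48 to 5.39 CPM with 3C (6 of 6 tested below 0), and 8 of 8 fibroblast, 8 of 8 stellate and 7 of 8 macrophage markers were below 0, with none called. Of the fibroblast markers, Thy1 and Pdgfra are members and the others are also matrix genes. Above 0 were 5 of 5 mesothelial markers (median 0.62) and 2 of 2 tested proximal tubule markers (median 2.15), also with none called. Their part in the member values was not tested.

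**Figure D4:**
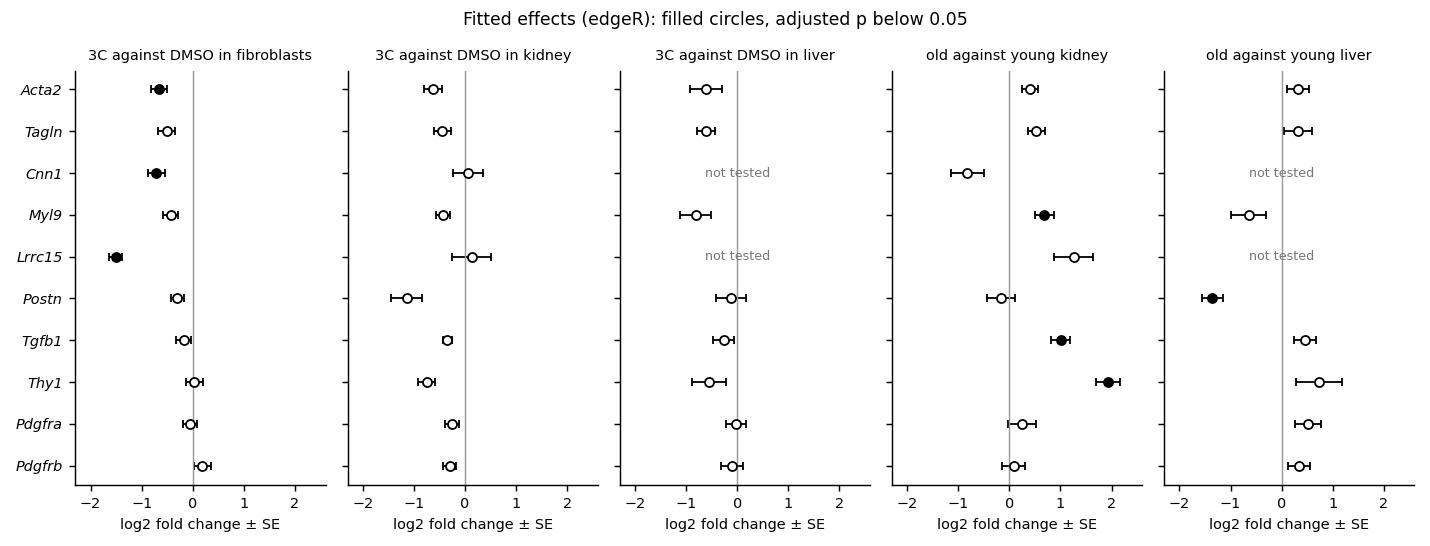
Fitted log2 fold changes with SE for each member in the 5 comparisons of treatment and age, where filled circles passed an adjusted p of 0.05 by edgeR. Filled circles stand at Acta2, Cnn1 and Lrrc15 in fibroblasts, at Myl9, Tgfb1 and Thy1 in old kidney and at Postn in old liver, and none in the kidney or liver with 3C.

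Whether the 3C effect differed between fibroblasts and organs was tested in 1 model of the 6 treated groups. The effect on Lrrc15 differed between fibroblasts and kidney, by -1.65 (SE 0.41, edgeR adjusted p = 0.0411, 16270 genes, of which 1.44% passed). In kidney Lrrc15 was at 1.603, 1.24, 1.502 and 2.04 CPM with DMSO and at 0.799, 1.081, 3.06 and 1.95 CPM with 3C, so the kidney value rested on few counts. The call was lost in 11 of 27 alternatives, all of them with 1 library left out (range -1.86 to -1.25, adjusted p up to 0.126). For Acta2 the effects were close, with differences of -0.05 between fibroblasts and kidney (SE 0.33) and -0.05 between fibroblasts and liver (SE 0.37), and those errors allow differences of either sign. No other member passed against kidney, and none against liver, where 1.18% of genes passed.

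Within the 32 kidney and liver libraries, with group means taken out, the members did not form 1 block. The receptor genes Pdgfra and Pdgfrb varied together (Pearson r = 0.83 over 32 libraries), as did Tgfb1 with Pdgfrb (0.73) and Tagln with Myl9 (0.64). Tgfb1 with Lrrc15 reached 0.57, Acta2 with Myl9 0.54 and Tgfb1 with Pdgfra 0.52, while Acta2 with Tagln reached 0.34 and Acta2 with Thy1 0.08. Libraries share depth and tissue makeup, so these are descriptions with no test. Without old kidney replicate 2 the values in the same order were 0.81, 0.74, 0.67, 0.57, 0.54, 0.54, 0.35 and 0.08 over 31 libraries. The closest genes below were found with that library included. The genes most like each member on this measure were Kdr for Pdgfra (0.92), Col14a1 (0.90) and Bgn (0.89) for Pdgfrb, Axl (0.89) for Tgfb1, Loxl1 (0.70) for Tagln, Thyn1 (0.69) for Myl9, Rtl8a (0.65) for Acta2, Msl3l2 (0.73) for Thy1, Cln3 (0.71) for Lrrc15, Pnmal2 (0.67) for Cnn1 and Trim37 (0.63) for Postn. Over the 10 group means, where the fibroblasts set the scale, the gene most like Lrrc15 was Tnc (r = 0.996). Tnc, tenascin C of remodelling matrix, was at 3409 to 4197 CPM with DMSO and 1615 to 2998 CPM with 3C in the fibroblasts. It was chosen by the same libraries, so these levels are a description. As a gene of the matrix list above, Tnc had been tested with 3C in fibroblasts and did not pass (log2 -0.86, edgeR adjusted p = 0.0522).

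Peaks of accessible chromatin that reached within 1 kb of the start site were set beside these levels in the untreated organs. Over all 24489 genes, a peak in all 3 libraries was found for 56.9% in young kidney, 55.1% in old kidney, 51.1% in young liver and 50.6% in old liver. Myl9 had a peak in 3 of 3 young and 3 of 3 old kidney libraries and in 0 of 3 young and 0 of 3 old liver libraries, the same way round as its RNA. Its fold enrichment over the local background was 4.77, 4.44 and 3.96 in young and 2.55, 3.55 and 5.46 in old kidney, and in 4 of these 6 libraries the summit lay 35 to 88 bases before the GENCODE start. Acta2 had a peak in 1 of 3 young and 3 of 3 old kidney libraries and in 0 liver libraries, with summits 229 to 1273 bases after the start. At a −log10 q-value of at least 5 no Acta2 peak was left in either age, and in the promoter window of 300 bases 1 of 3 libraries of each age held one.

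Cnn1 had a peak in 1 young kidney library alone, and Thy1 in 1 old kidney library alone, at a level of RNA that differed 3.8-fold with age. Postn had peaks in 2 of 3 young and 0 of 3 old liver libraries, the direction of its RNA, and both of these peaks fell away at a −log10 q-value of at least 5. It also had a peak in 1 of 3 young and 0 of 3 old kidney libraries, where its RNA passed no test (log2 -0.17). Tagln, Lrrc15 and Tgfb1 had a peak in all 12 libraries, in organs where Lrrc15 RNA was at most 2.04 CPM. At a −log10 q-value of at least 5, Tagln kept all of them. Lrrc15 then had a peak in 1 young kidney, 2 old kidney, 2 young liver and 1 old liver library, and Tgfb1 in 2, 1, 2 and 2. In the promoter window of 300 bases Tgfb1 had a peak in every library, Lrrc15 in 1 young kidney library alone and Tagln in 2 old kidney libraries alone. For Tagln the summits lay at positions -1106 to -1048 from its start, so these peaks reached into the window from its edge, and for Lrrc15 they lay at -935 to -829 in 10 of 12 libraries. Pdgfra had peaks in 2 of 3 young kidney, 2 of 3 old kidney, 1 of 3 young liver and 0 of 3 old liver libraries, and Pdgfrb in 2, 3, 0 and 2. With 3 libraries against 3 an exact permutation test cannot give a p under 0.1, so no test was made, and a peak absent from a list can lie just under the caller's threshold.

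**Figure D5:**
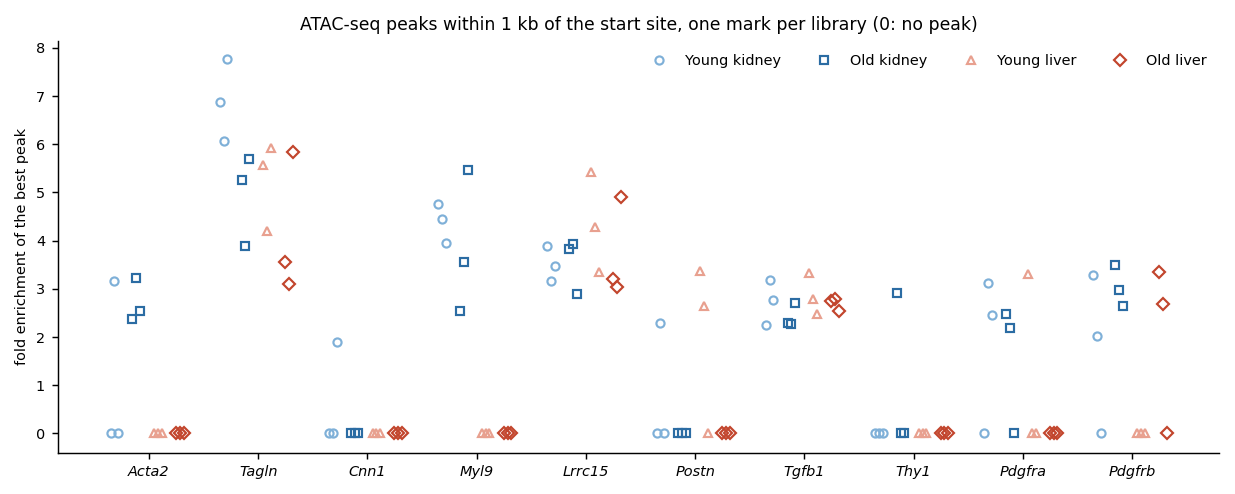
Fold enrichment of the best ATAC-seq peak within 1 kb of each member's start site, 1 mark per library in the 4 untreated groups, with 0 where no peak was listed. Myl9 has marks above 0 in kidney only (2.55 to 5.46), whereas Tagln, Lrrc15 and Tgfb1 have a peak in every library.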

How the data were processed

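RNA-seq counts and ATAC-seq peaks of kidney, liver and skin fibroblasts were re-analysed. Per the labels and the study's methods, the authors trimmed reads (Trimmomatic 0.39), aligned them to mm10 (HISAT2 2.2.1) and deposited counts per gene (HTSeq 0.12.4, without strand). For ATAC-seq the authors aligned reads (Bowtie2 2.3.5.1), removed duplicates and deposited MACS2 peaks per library, giving each peak's fold enrichment (a ratio to local background) and −log10 q-value. Tallies of reads outside genes (5.85 to 19.11% of reads) stayed out of library sizes.

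Counts were fitted here with edgeR 4.0.16 (TMM scaling, filterByExpr with a minimum count of 10, glmQLFit and glmQLFTest, only the groups compared) in R 4.3.3, with Benjamini-Hochberg adjustment over all genes tested and a threshold of 0.05. Fold changes are fitted values with SE, and approximate 95% intervals are 1.96 SE to either side. Alternatives were DESeq2 1.42.0, other size factors and filters, a replicate block, removal of length and GC trends, reads outside genes (their share) as covariate, a further 2-fold threshold, and leaving out each library. Exons and starts came from GENCODE vM21 (24534 of 24984 gene names matched) and promoters from RefSeq GRCm38.p6. Libraries of 1 group were compared as pairs (54 pairs), and none agreed within sampling noise (smallest chi-square per degree of freedom 6.93). The precision of each value is set by its count in a library of 14.2 to 43.7 M, and SDs are over libraries. All 10 members are named in every comparison of 2 groups where they could be tested. For age and 3C, up to 4 called genes of smallest p are named of each pathway list; marker genes and exceptions stated were named after their values were seen, and of genes of like pattern the highest Pearson r of log2 CPM (prior count 2). A gene of the SMAD and response list is not reported here. The members and lists were chosen with earlier results of these data known.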

Additional observations from a re-analysis of the deposited data

Results flagged for a closer look

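Among 80 sets of 4 libraries (10 members in the 8 kidney and liver groups), 1 held a library far from the others by Dixon's criterion at 95% (critical value 0.829), and chance alone flags about 1 in 20. This was Pdgfra in young liver, where replicate 4 stood at 2.88 CPM (64 counts) and the other 3 libraries at 5.79 to 6.16 CPM. Pdgfrb was also lowest in that library, at 4.42 CPM against 7.02 to 8.97 CPM.

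The 3C effect on Lrrc15 differed between fibroblasts and kidney by -1.65 on the log2 scale in the test of the difference itself (edgeR adjusted p = 0.0411). It fell in fibroblasts in 3 of 3 libraries against every DMSO library, and in kidney 3C libraries lay on both sides of the DMSO libraries, at 0.799 to 3.06 CPM.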

How the results depend on the processing

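Replicate numbers were not taken as pairs: correlations of deviations between same-numbered libraries ran from -0.31 to 0.33 over the 5 comparisons of age and treatment, and in no comparison were all above 0.1. In liver, 3C replicates 1, 2 and 3 correlated best with the DMSO library of their own number (0.155, 0.095 and 0.221) and replicate 4 did not (-0.115). Replicate 2 also did so in fibroblasts and in old liver, so pairing is not excluded. With the replicate block 1 member was lower with 3C in fibroblasts (3 without it), as with the share of reads outside genes in the model or the 2-fold threshold added (1 each). DESeq2 called 5 members higher in old kidney (8.85% of all genes), 3 lower with 3C in kidney and 2 with a lower age effect in liver than in kidney. Removing length and GC trends gave 1 member lower in old kidney and 2 lower in young kidney than liver. The share of all genes called at that setting is not given here, so these counts are not read against it. The share of reads outside genes differs between organs and cannot be told apart from them: with it in the model 3 members were higher and 0 lower in young kidney than liver, and 1 higher in DMSO fibroblasts than kidney. For the other settings the cause was not tested.

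Without 1 library, counts ranged over 1 to 3 lower in fibroblasts with 3C (1 without DMSO replicate 1 or 3 or 3C replicate 1 or 2), 2 to 4 higher and 0 to 1 lower in old kidney (1 without young replicate 1), 1 to 2 lower in old liver (2 without old replicate 1), 6 to 7 higher and 1 to 2 lower in young kidney than liver (2 without young liver replicate 3), 0 to 1 in the age difference and 0 to 1 in the 3C difference between fibroblasts and kidney.

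Of 1330 values of single members under these alternatives, 1227 kept direction and side of the threshold, 46 lost a call, 19 gained one and 38 turned sign, none of the last in a called member. Signs turned for Thy1 in fibroblasts (-0.015) and Postn in old kidney (0.14) with length and GC trends removed, and for Lrrc15 with 3C in kidney (-0.012), Tgfb1 (0.24) and Thy1 (1.963) between young organs with the share outside genes. Pdgfra with 3C in liver was 0.00 with the block. Without 1 library, ranges crossing 0 were -0.072 to 0.15 for Thy1, -0.17 to 0.041 for Pdgfra and -0.003 to 0.29 for Pdgfrb in fibroblasts, -0.35 to 0.004 for Postn and -0.13 to 0.23 for Pdgfrb in old kidney, -0.13 to 0.26 for Cnn1 and -0.28 to 0.36 for Lrrc15 with 3C in kidney, -0.31 to 0.051 for Postn and -0.13 to 0.083 for Pdgfra with 3C in liver, -0.61 to 0.12 for Thy1 between young organs, and -0.21 to 0.067 and -0.28 to 0.12 for the Acta2 differences between fibroblasts and kidney or liver. Over all genes, calls with 3C in fibroblasts were 327 higher and 240 lower, against 544 and 470 by DESeq2 and 84 and 34 with the share outside genes. Low counts (at most 11 in any liver library) kept Lrrc15 and Cnn1 out of the tests within liver.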
